A study of Homo sapiens with 36 samples.

Results

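The step from 4 h to 8 h of dimerizer in WT cells was measured by RNA sequencing of 6 of the 36 libraries in the series, 3 wells collected at 4 h and 3 at 8 h. The members are those 6 libraries, taken by their labels, with all genes of the deposited count table. The cells were U2OS Dmr-PERK, a human osteosarcoma line that carries the kinase domain of mouse PERK fused to DmrB, a domain that pairs up when a small-molecule dimerizer is added. Both groups had the WT genotype, the Dmr-PERK construct and the dimerizer, which the labels call Dim. The labels give the same dimerizer level for every treated library. It is a number for which the sources used here state no unit, and it is not printed here. They differed in the labelled time with dimerizer. The other libraries used beside the step were WT cells at 0 h (labelled NT), 2 h, 16 h and 24 h, and ATF4KO cells with the same construct and dimerizer at 4 h and 8 h. The series holds no cells without Dmr-PERK and no wells kept untreated to 8 h, so hours in culture, the ligand and the kinase cannot be told apart. The labels do not say whether the line or the knockout is 1 clone, nor whether the wells of a group came from separate cultures. The p-values therefore measure only the spread between wells, which may be technical.

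PERK is a kinase that phosphorylates the translation initiation factor eIF2α, which lowers general protein synthesis and raises translation of the transcription factor ATF4. ATF4 and its partners then drive genes for amino acid supply, tRNA charging and redox balance, the integrated stress response (ISR). ATF4 also drives CHOP (DDIT3) and PPP1R15A, which encodes the regulatory subunit that directs the phosphatase back to eIF2α. Short-lived messages such as those of immediate early genes and cytokines respond to a change in their synthesis or decay sooner than long-lived ones. In bulk libraries, less of a transcript per cell and fewer cells with that transcript cannot be told apart.

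Total counts per library were 8751707 to 10334478 at 4 h and 8608541 to 11826865 at 8 h, within the 8608541 to 16264785 of all 36 libraries. Mitochondrial transcripts took 5.21 to 5.33% of counts at 4 h and 4.80 to 4.86% at 8 h. Mesenchymal and bone-lineage markers summed to 6076 to 6335 CPM (counts relative to library size, scaled by edgeR's TMM method) at 4 h and to 5100 to 5442 at 8 h, with none of the 9 at 0. COL1A2 was near the floor, at 0.26 to 1.05 CPM in the 6 libraries. Of that list VIM, COL1A1, SPARC, FN1 and THY1 were the members called lower, and ALPL and CDH2 those called higher, CDH2 not without WT 4 h replicate 3. The 7 epithelial markers summed to 18 to 22.1 CPM at 4 h and 13.0 to 15.5 CPM at 8 h. KRT14, CLDN4 and EPCAM were called lower, EPCAM not without WT 4 h replicate 1 or 2 or WT 8 h replicate 1 or 2. The 6 blood markers stayed under 1.91 CPM in sum, with CD3E at 0 counts in all 6 libraries, and the 5 endothelial markers went from 3.77 to 5.36 CPM at 4 h to 2.60 to 2.94 CPM at 8 h, with KDR at 0 and VWF called lower. The 5 neural markers summed to 31.8 to 33.4 CPM at 4 h and 37.5 to 39.7 CPM at 8 h, with SYP called higher. ATF4 mRNA itself was 482, 483 and 497 CPM in the ATF4KO libraries at 4 h and 739, 702 and 739 CPM at 8 h. The sources used here do not describe the lesion, so the mRNA level does not check the knockout label.

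Of 19043 genes tested, 6854 (36%) were called in the step at an adjusted p under 0.05, 3421 higher at 8 h (18%) and 3433 lower (18%). The 3 libraries at 4 h and the 3 at 8 h did not overlap for 6511 of the called genes (34.2% of those tested). Changes of at least 2-fold were fewer and mostly falls, with 185 genes higher (0.971%) and 553 lower (2.9%). With limma on log2(TPM + 1) the step gave 2116 genes higher and 1883 lower over all 36 libraries. It gave 2647 higher and 2362 lower once the 3 untreated knockout libraries, whose deposited TPM and counts did not match, were left out. For each of these 3 the best match between TPM and counts was with another library of the same group. Their own TPM and counts correlated at 0.914, 0.933 and 0.498 for replicates 1, 2 and 3. Of the genes named in this report, the steps of ATF3, DDIT3, PPP1R15A, HSPA5, GDF15, CXCL8, CTGF, TRAF1, TNFRSF10B, ERRFI1, PMAIP1, CENPF, DLGAP5, KRTAP2-3 and the markers FN1 and CLDN4 were not called over the 36 libraries on that scale and were called over the 33.

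Genes were then sorted by what they had done before 4 h. At 4 h against 0 h, 4488 genes were called higher (23.6%) and 4023 lower (21.1%), and at 8 h against 0 h 5652 were higher (29.7%) and 5646 lower (29.6%). Newly raised genes were higher in the step, not called at 4 h and above 0 h at 8 h, and newly lowered genes were the mirror of that. Genes that continued had the same direction in both intervals, and genes that reversed had opposite directions. Newly raised genes numbered 978 and newly lowered genes 1085. A rise continued for 1881 genes and a fall for 1585. A rise reversed for 625 genes and a fall for 391. Another 1982 genes raised by 4 h and 2047 lowered by 4 h were not called in the step. The 2 intervals share the 4 h libraries, so a chance deviation at 4 h enters both with opposite sign. With the earlier change read at 2 h, when 2328 genes were higher (12.2%) and 1984 lower (10.4%) and no library is shared with the step, 469 rises and 276 falls reversed, 818 rises and 733 falls continued, and 1976 genes were newly raised and 1874 newly lowered. Of the 978 newly raised genes by the 4 h reading, 147 had been called higher at 2 h and 82 lower. Of the 625 genes reversed after a rise, 193 were still called above 0 h at 8 h, 164 were below it and 268 were not called. The same split for the 391 reversed after a fall was 69 above, 78 below and 244 not called.

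**Figure D1:**
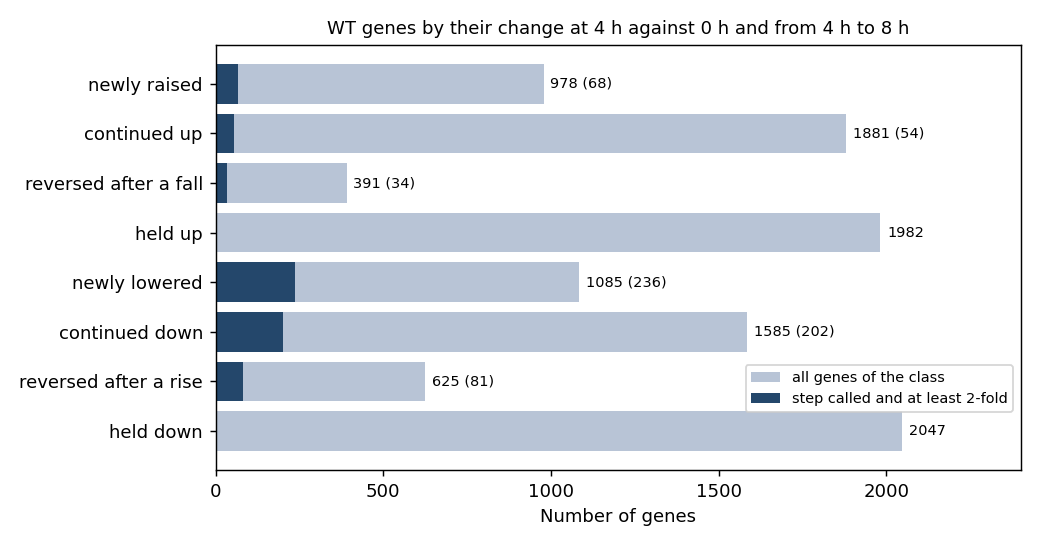
Number of genes (horizontal axis) in each class of WT genes by the change at 4 h against 0 h and the step from 4 h to 8 h, with genes of a called step of at least 2-fold in dark blue and their number in brackets. Continued rises are the most numerous class with a called step (1881), while 2-fold steps are most numerous among newly lowered (236) and continued falling genes (202).

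Among newly raised genes the largest steps were those of ESM1, ANK2, PAPPA2, FAM155A and KCNQ5. ESM1 (chr5:54977864-55022671, minus strand, GRCh38), which encodes a secreted proteoglycan, was 5.10, 3.73 and 5.63 CPM at 4 h and 34.5, 27.5 and 31.0 CPM at 8 h. Its libraries at 0 h, 2 h and 4 h shared 1 range, 3.41 to 5.84 CPM, and all 3 wells at 8 h lay far above it. The step was 2.66 ± 0.18 (SE, edgeR adjusted p = 4.92e-16) on the log2 scale, and the mean fell back to 17.8 CPM at 16 h and 6.74 CPM at 24 h. ANK2 (chr4:112818109-113383740, plus strand), which encodes ankyrin-B, a linker of membrane proteins to the spectrin skeleton, was 2.75, 1.63 and 4.05 CPM at 4 h and 20.2, 18.6 and 15.1 CPM at 8 h. No well at 4 h came near the lowest at 8 h, the step was 2.63 ± 0.16 (SE, edgeR adjusted p = 1.08e-17), and the mean went on to 50.8 CPM at 16 h and 53.3 CPM at 24 h. ESM1 and ANK2 had steps of like size and unlike later courses. PAPPA2, a protease that cleaves carriers of insulin-like growth factors, was 1.63, 1.86 and 3.36 CPM at 4 h and 10.1, 8.62 and 9.70 CPM at 8 h, a step of 2.02 ± 0.18 (SE, edgeR adjusted p = 2.9e-12). All 3 wells at 8 h were above all 3 at 4 h. FAM155A rose by 1.87 ± 0.22 (SE, edgeR adjusted p = 2.4e-09) and the potassium channel gene KCNQ5 by 1.66 ± 0.094 (SE, edgeR adjusted p = 3.03e-18). The stress genes HMOX1 and GDF15 were in the same class. HMOX1, heme oxygenase, was 15.8, 15.0 and 16.4 CPM at 4 h and 28.5, 27.8 and 32.1 CPM at 8 h, a step of 0.91 ± 0.088 (SE, edgeR adjusted p = 2.33e-11) after 18.1 CPM at 0 h. GDF15, a secreted stress hormone, was 28.7, 29.1 and 27.5 CPM at 4 h and 45.0, 38.6 and 39.6 CPM at 8 h, a step of 0.52 ± 0.095 (SE, edgeR adjusted p = 1.83e-05). GDF15 had already stood at 47.5, 35.8 and 42.4 CPM at 2 h against 29.0, 23.2 and 24.9 CPM at 0 h, so its level at 4 h was a dip between 2 higher times.

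Newly lowered genes were led by EPPK1, SYNPO2L, ACKR3, PDGFB and FOS. EPPK1, which encodes epiplakin, a binder of intermediate filaments, was 21.9, 19.3 and 22.7 CPM at 4 h and 1.17, 2.18 and 1.56 CPM at 8 h. It had been level up to 4 h, with 21.5, 26.2 and 23.3 CPM at 0 h, and then fell by 3.67 ± 0.16 (SE, edgeR adjusted p = 1.31e-21) on the log2 scale, the largest fall of the step that met the naming rule (a call, no overlap and 5 CPM or more on average at 4 h or 8 h). SYNPO2L, an actin-associated protein of striated muscle, was 22.6, 23.8 and 24.5 CPM at 4 h and 1.88, 3.63 and 3.81 CPM at 8 h and fell by 2.88 ± 0.15 (SE, edgeR adjusted p = 3.87e-19). ACKR3, a scavenging receptor for the chemokine CXCL12, was 34.7, 37.4 and 35.0 CPM at 4 h and 6.58, 6.98 and 8.22 CPM at 8 h and fell by 2.28 ± 0.11 (SE, edgeR adjusted p = 4.14e-20). PDGFB, a platelet-derived growth factor chain, fell by 2.25 ± 0.22 (SE, edgeR adjusted p = 3.92e-11). In all 4 of these genes every well at 8 h was below every well at 4 h, and the means at 16 h were lower again. FOS, a subunit of AP-1, had a pulse of 116, 142 and 135 CPM at 2 h and returned to 30.0, 46.3 and 47.0 CPM at 4 h, near the 38.9, 39.5 and 42.0 CPM of untreated wells. It then fell below them to 8.46, 7.62 and 11.3 CPM, a step of -2.16 ± 0.14 (SE, edgeR adjusted p = 2.2e-16).

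**Figure D2:**
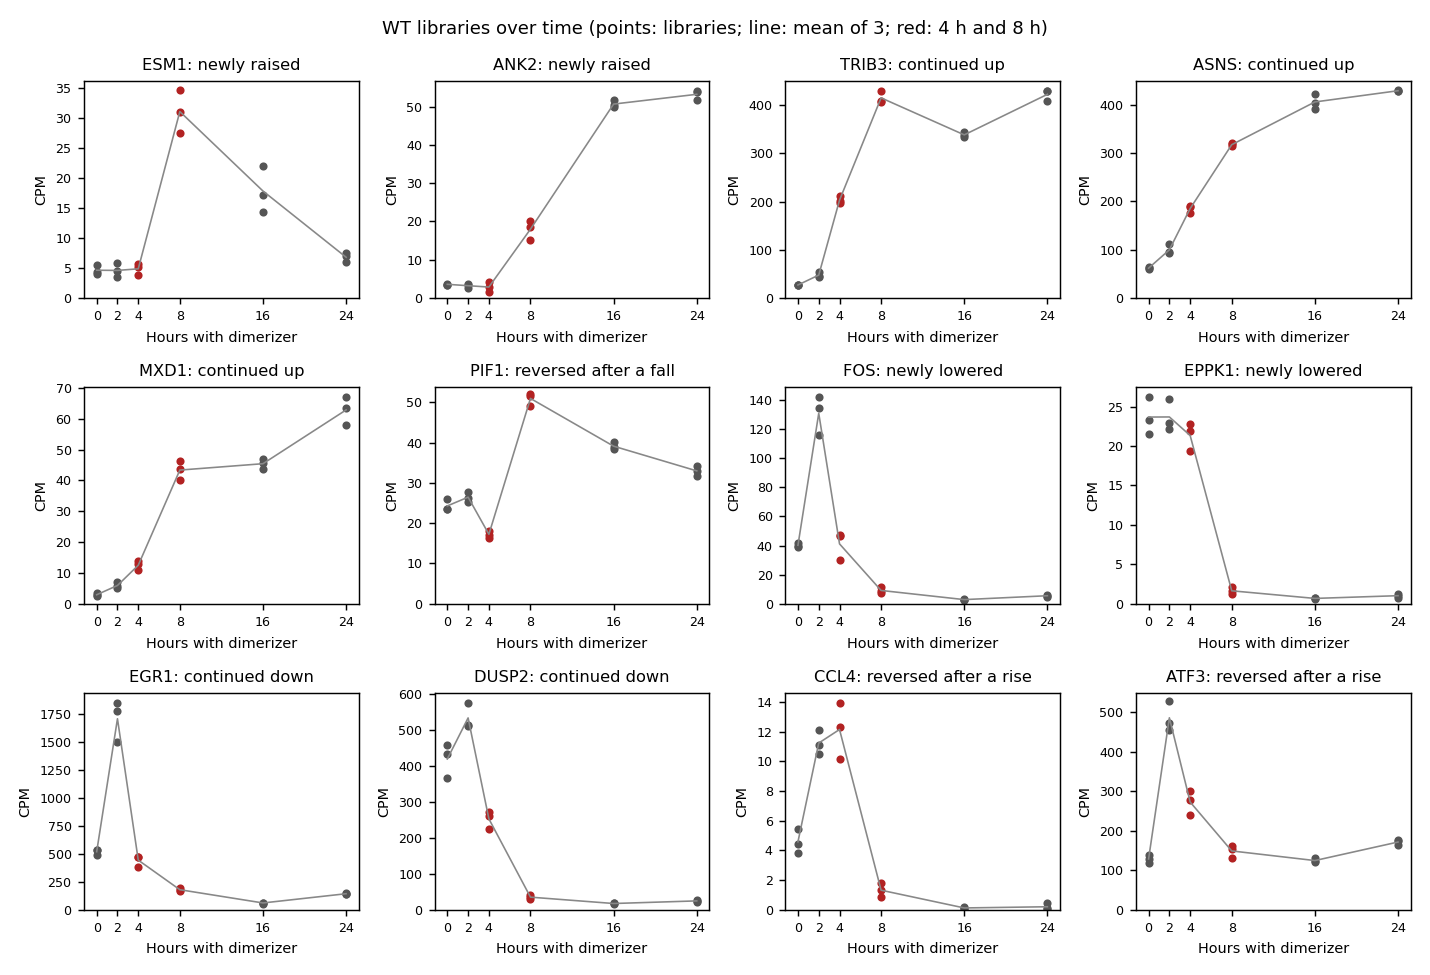
CPM (vertical axes, from 0) of 12 genes in each WT library against hours with dimerizer, with a line through the means of 3 libraries and the 4 h and 8 h libraries in red. ESM1 and ANK2 start to rise only after 4 h, TRIB3, ASNS and MXD1 go on rising, PIF1 turns from a fall to a rise, and the 6 genes of the lower panels from FOS to ATF3 fall in the step.

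The ISR genes divided into those that went on rising, those that held and those that turned down. Of 26 transcription factors and effectors of the ISR, 22 had been called higher by 4 h, and in the step 13 rose and 5 fell, with a median step of 0.13 against −0.00052 over all genes tested. Of all genes tested 23.6% were higher at 4 h, and 18% moved in each direction in the step. The share of falls in this list was near that of all genes. The same 18% stands beside the counts of the lists below. TRIB3, a pseudokinase that restrains ATF4 signalling, was 211, 196 and 201 CPM at 4 h and 409.6, 406 and 430.1 CPM at 8 h. All 3 wells at 8 h lay near 415 CPM and well above those at 4 h, a step of 1.03 ± 0.042 (SE, edgeR adjusted p = 4.52e-23). SLC7A11, the cystine transporter, was 162, 153 and 167 CPM at 4 h and 309, 327 and 315 CPM at 8 h, a step of 0.98 ± 0.040 (SE, edgeR adjusted p = 6.43e-23). ASNS, asparagine synthetase, was 188, 191 and 177 CPM at 4 h and 320.0, 314 and 318 CPM at 8 h, a step of 0.78 ± 0.040 (SE, edgeR adjusted p = 7.49e-20). The wells at 8 h stood apart from those at 4 h for both genes. Smaller rises were those of NFIL3 (0.54 ± 0.057 SE, edgeR adjusted p = 1.71e-10), SESN2, a stress-induced brake on mTORC1 (0.26 ± 0.050 SE, edgeR adjusted p = 3.81e-05), and VLDLR, a lipoprotein receptor (0.36 ± 0.060 SE, edgeR adjusted p = 3.46e-06). The VLDLR call was lost in the 33-library TPM fit, with limma's adjusted p at 0.051.

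ATF4 and PPP1R15A moved little. ATF4 mRNA was 684, 668 and 694 CPM at 4 h and 720.5, 707 and 746 CPM at 8 h. The wells at 8 h were above those at 4 h by a narrow margin, a step of 0.088 ± 0.031 (SE, edgeR adjusted p = 0.0218). Leaving out WT 4 h replicate 1 or 2, or WT 8 h replicate 1 or 3, ended that call. PPP1R15A was 119.8, 143 and 143 CPM at 4 h and 149, 151 and 156 CPM at 8 h, a step of 0.17 ± 0.055 (SE, edgeR adjusted p = 0.0114) that was not called without WT 4 h replicate 1 or WT 8 h replicate 3. HSPA5, the ER chaperone BiP, was 885, 891 and 884 CPM at 4 h and 925, 921 and 956 CPM at 8 h. Its step of 0.076 ± 0.029 (SE, edgeR adjusted p = 0.0353) was lost when any 1 of the 6 libraries other than WT 8 h replicate 2 was left out. EIF2AK3, the gene for PERK, was 746, 788 and 772 CPM at 4 h and 778, 771 and 813 CPM at 8 h with overlapping groups, and its counts may include reads from the construct. The step was 0.036 ± 0.028 (SE, edgeR adjusted p = 0.356).

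CHAC1 and FGF21 were raised by 4 h and were not called in the step. CHAC1, which degrades glutathione, was 62.6, 63.9 and 61.7 CPM at 4 h and 58.2, 59.9 and 62.0 CPM at 8 h. Its groups overlapped, and the step was -0.060 ± 0.076 (SE, edgeR adjusted p = 0.589), after 8.26 CPM at 0 h. FGF21, a hormone gene, was 2.96, 3.03 and 2.08 CPM at 4 h and 3.41, 3.08 and 3.03 CPM at 8 h, with no well above 0.132 CPM at 0 h. At this depth the step of FGF21 could not be told from 0, at 0.24 ± 0.26 (SE, edgeR adjusted p = 0.516). The 250 bases before each start site (RefSeq, GRCh38.p14) are shown because both hold the ATF4-C/EBP element TGATGCAA, here as its reverse complement, in capitals. The CHAC1 window is chr15:40953221-40953470, plus strand, and the match begins 209 bases before the start. The FGF21 window is chr19:48755274-48755523, plus strand, and the match begins 54 bases before it.
CHAC1: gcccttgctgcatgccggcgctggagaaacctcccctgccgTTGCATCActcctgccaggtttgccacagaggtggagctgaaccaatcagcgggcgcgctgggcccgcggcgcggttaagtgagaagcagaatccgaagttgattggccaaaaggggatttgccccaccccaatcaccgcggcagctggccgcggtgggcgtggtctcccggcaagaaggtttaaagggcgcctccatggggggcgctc
FGF21: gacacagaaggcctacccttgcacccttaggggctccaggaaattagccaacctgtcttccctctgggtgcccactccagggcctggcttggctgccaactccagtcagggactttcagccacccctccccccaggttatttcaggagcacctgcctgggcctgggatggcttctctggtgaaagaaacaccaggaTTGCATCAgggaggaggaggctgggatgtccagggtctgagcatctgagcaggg
That element, searched on both strands over windows from 250 bases before to 50 after a start, was in 252 of 27305 RefSeq windows (0.923%), in 0.571% of those of tested genes, in 4 of the 23 ISR-list genes that have a window and in 6 of 16 cytosolic tRNA synthetase genes (37.5%). None of the 17 amino acid transporter genes and none of the 14 mitochondrial tRNA synthetase genes with a window held it.

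DDIT3, ATF3 and DDIT4 turned down. DDIT3, which encodes CHOP, was 96.9, 92.1 and 96.4 CPM at 4 h and 75.0, 73.8 and 82.0 CPM at 8 h, and fell by 0.30 ± 0.063 (SE, edgeR adjusted p = 0.000133) without overlap. ATF3, a partner of ATF4, was 239.9, 277 and 301 CPM at 4 h and 131, 153 and 162 CPM at 8 h, and fell by 0.87 ± 0.094 (SE, edgeR adjusted p = 4.48e-10) to near the 119, 138 and 129 CPM of untreated wells, after 474, 529 and 456 CPM at 2 h. DDIT4, an inhibitor of mTORC1, was 538, 511 and 502 CPM at 4 h and 432, 418 and 425 CPM at 8 h, a fall of 0.28 ± 0.049 (SE, edgeR adjusted p = 7.42e-06). DDIT3 and DDIT4 remained above their untreated wells in all 3 libraries at 8 h. JDP2, which dimerizes with AP-1 and ATF proteins, fell by 0.56 ± 0.072 (SE, edgeR adjusted p = 1.75e-08).

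Amino acid supply and tRNA charging rose together. Of 22 genes of serine, one-carbon and amino acid synthesis, 19 rose and 2 fell, with a median step of 0.51, and 18 of the risers had also risen by 4 h. GOT1, an aspartate aminotransferase, was 98.9, 96.3 and 92.5 CPM at 4 h and 178, 179 and 189 CPM at 8 h, a step of 0.92 ± 0.047 (SE, edgeR adjusted p = 7.49e-20). PSAT1, of serine synthesis, was 88.5, 91.1 and 86.1 CPM at 4 h and 153, 154 and 155 CPM at 8 h, a step of 0.80 ± 0.045 (SE, edgeR adjusted p = 1.5e-18). The fallers were OAT (-0.37 ± 0.041 SE, edgeR adjusted p = 5.55e-10) and GLUL, glutamine synthetase (-0.95 ± 0.19 SE, edgeR adjusted p = 6.53e-05). Of 20 cytosolic tRNA synthetase genes, 19 rose, all 19 continuing an earlier rise, and the median step was 0.48. WARS, for tryptophan, was 75.3, 73.0 and 63.5 CPM at 4 h and 141, 135 and 149 CPM at 8 h, a step of 1.01 ± 0.050 (SE, edgeR adjusted p = 3.95e-20). GARS, for glycine, was 537, 530.4 and 536 CPM at 4 h and 882, 862 and 874 CPM at 8 h, a step of 0.71 ± 0.030 (SE, edgeR adjusted p = 3.8e-22). QARS, for glutamine, was the exception, at 165, 167 and 165 CPM at 4 h and 128, 141 and 140.2 CPM at 8 h, and fell by 0.28 ± 0.039 (SE, edgeR adjusted p = 1.79e-07). Of 17 mitochondrial tRNA synthetase genes 5 rose and 1 fell, and leaving out WT 4 h replicate 3, WT 8 h replicate 1 or WT 8 h replicate 2 left 3 rises. Among 20 amino acid transporters 8 rose and 3 fell, beside 18% of all genes in each direction, and the share of falls was near that. SLC6A9 (glycine) rose by 0.81 ± 0.051 (SE, edgeR adjusted p = 6.99e-17) and SLC1A5 (glutamine) by 0.61 ± 0.038 (SE, edgeR adjusted p = 9.38e-17). SLC38A2, a system A transporter, was 658, 624 and 644 CPM at 4 h and 499.8, 512 and 495 CPM at 8 h and fell by 0.35 ± 0.046 (SE, edgeR adjusted p = 2.31e-08), after no call at 4 h. Its wells at 8 h were all below those at 4 h.

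Genes for making ribosomes and for translation also went on rising. Of 37 ribosome biogenesis genes 35 rose and none fell, with a median step of 0.33 and 34 continued rises. DKC1, the pseudouridine synthase of small nucleolar ribonucleoproteins, was 221, 223 and 208 CPM at 4 h and 363, 366 and 367 CPM at 8 h, a step of 0.75 ± 0.038 (SE, edgeR adjusted p = 5.69e-20). Nucleolin (NCL) was 639.8, 623 and 627 CPM at 4 h and 813, 789 and 825 CPM at 8 h, a step of 0.36 ± 0.026 (SE, edgeR adjusted p = 4.79e-15). Both genes had tight wells and no overlap. The E-box CACGTG, bound by MYC and MAX and equal to its own reverse complement, was in 13 of the 30 genes of this list with a promoter window (43.3%), in 9.75% of the windows of tested genes and in 7.43% of all windows. MXD1, which competes with MYC for MAX, was itself among the 10 largest rises, at 10.8, 12.8 and 13.8 CPM at 4 h and 43.7, 40.1 and 46.3 CPM at 8 h, a step of 1.80 ± 0.12 (SE, edgeR adjusted p = 1.37e-16). Of 18 small nucleolar RNA host genes 15 rose, GAS5 by 0.76 ± 0.045 (SE, edgeR adjusted p = 8.25e-18) and SNHG1 by 0.70 ± 0.049 (SE, edgeR adjusted p = 2.94e-15), and SNHG14 fell, a call lost without WT 8 h replicate 1 and on the TPM scale. Transcripts of these hosts are degraded by nonsense-mediated decay, and of 16 factors of that pathway 11 rose and none fell, SMG1 by 0.37 ± 0.036 (SE, edgeR adjusted p = 4e-11). Of 36 translation factors 27 rose and 1 fell, with EIF2S2, the β subunit of eIF2, at 278, 272 and 269.6 CPM at 4 h and 362, 357 and 368 CPM at 8 h, a step of 0.41 ± 0.035 (SE, edgeR adjusted p = 6.78e-13). The faller was EIF4EBP2, a repressor of cap-dependent translation, at -0.27 ± 0.052 (SE, edgeR adjusted p = 3.5e-05). Of 13 purine synthesis genes 10 rose and none fell, GART by 0.59 ± 0.034 (SE, edgeR adjusted p = 5.84e-18). Of 20 mitochondrial chaperones and proteases 12 rose, with HSPA9 (mortalin) at 0.60 ± 0.027 (SE, edgeR adjusted p = 3.27e-21) and the protease LONP1 at 0.47 ± 0.040 (SE, edgeR adjusted p = 9.31e-13). HTRA2 and OMA1 were called lower in that list, calls that ended without WT 4 h replicate 2 or WT 8 h replicate 2. For OMA1 they also ended without WT 4 h replicate 3 or WT 8 h replicate 3, and its direction turned on the TPM scale.

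**Figure D3:**
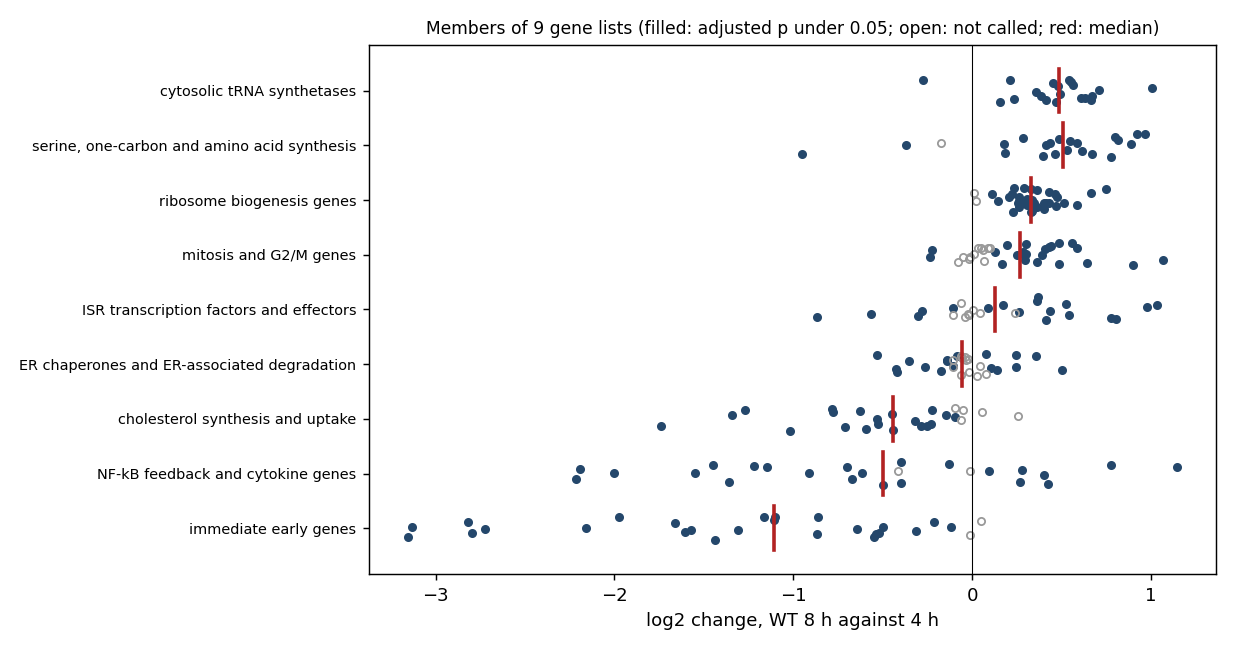
Log2 change from 4 h to 8 h (horizontal axis) of each tested member of 9 gene lists, filled where the adjusted p was under 0.05 and open where not, with the list's median in red. The lists for tRNA charging, amino acid synthesis, ribosome biogenesis and mitosis lie mostly right of 0, and the cholesterol, NF-kB and immediate early lists mostly left.

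The other continued rises with the largest steps were MYCT1, OLAH, MMP10, RPLP0P2 and TSLP. MYCT1, a target gene of MYC, was 3.37, 4.08 and 3.16 CPM at 4 h and 18.8, 20.0 and 17.2 CPM at 8 h, a step of 2.41 ± 0.16 (SE, edgeR adjusted p = 2.61e-16). OLAH, a thioesterase that releases chains from fatty acid synthase, was 2.65, 1.98 and 2.57 CPM at 4 h and 11.9, 13.2 and 12.7 CPM at 8 h, a step of 2.38 ± 0.16 (SE, edgeR adjusted p = 6.14e-16), and reached 93.2 CPM at 24 h. All 3 wells at 8 h lay above all at 4 h for both. MMP10, the protease stromelysin-2, rose by 1.81 ± 0.20 (SE, edgeR adjusted p = 4.45e-10) and the cytokine gene TSLP by 1.79 ± 0.21 (SE, edgeR adjusted p = 4.57e-09). RPLP0P2 rose by 1.80 ± 0.084 (SE, edgeR adjusted p = 6.19e-21), but it is a pseudogene of RPLP0 and reads could be divided between the copies, so its value is uncertain.

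The immediate early genes, first responders to growth factors and stress, fell. Of 27 tested members 25 fell and none rose in the step (18% of all genes in each direction), with a median step of -1.11. The falls numbered 15 on log2(TPM + 1) over 36 libraries. Of the 25, 14 continued a fall, 8 had been raised at 4 h and 3 were newly lowered. EGR1, a zinc finger transcription factor, was 385, 472 and 469.8 CPM at 4 h and 163, 174 and 197 CPM at 8 h, after a pulse to 1497, 1772 and 1846 CPM at 2 h. Every well at 8 h was below every well at 4 h, a fall of 1.31 ± 0.086 (SE, edgeR adjusted p = 3.3e-16). EGR2 was 16.3, 14.8 and 18.7 CPM at 4 h and 1.17, 1.90 and 2.42 CPM at 8 h and fell by 3.13 ± 0.25 (SE, edgeR adjusted p = 9.21e-14). The orphan nuclear receptor genes moved the same way, with NR4A3 (chr9:99821855-99866891, plus strand) at 78.9, 101 and 108 CPM at 4 h and 9.39, 10.9 and 11.7 CPM at 8 h, a fall of 3.16 ± 0.17 (SE, edgeR adjusted p = 5.29e-19). NR4A1 was 327, 379 and 396 CPM at 4 h and 43.3, 55.0 and 58.3 CPM at 8 h, a fall of 2.80 ± 0.089 (SE, edgeR adjusted p = 1.97e-26). The highest well at 8 h was far below the lowest at 4 h for both NR4A genes. JUNB, an AP-1 subunit, was 445, 464 and 446 CPM at 4 h and 135, 154 and 164 CPM at 8 h, a fall of 1.57 ± 0.040 (SE, edgeR adjusted p = 1.05e-29) that turned a small excess over 0 h into a deficit. IER3 and FOSL2 did the same, falling by 1.60 ± 0.043 (SE, edgeR adjusted p = 3.15e-29) and by 1.10 ± 0.034 (SE, edgeR adjusted p = 5.64e-27). EGR4, raised to 21.4, 27.0 and 34.6 CPM at 4 h, was 3.52, 3.54 and 4.59 CPM at 8 h, a fall of 2.82 ± 0.19 (SE, edgeR adjusted p = 2.78e-16).

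Feedback inhibitors of MAP kinases, which immediate early signals induce, fell too. Of 10 members 7 fell and none rose, although 1 rise was called without WT 4 h replicate 3. DUSP2 (chr2:96143166-96145440, minus strand), a nuclear MAP kinase phosphatase, was 225, 272 and 262 CPM at 4 h and 29.2, 35.6 and 39.6 CPM at 8 h. Its wells at 8 h were at most 39.6 CPM, and the fall was 2.84 ± 0.11 (SE, edgeR adjusted p = 4.27e-23). DUSP1 was 350.2, 392 and 377 CPM at 4 h and 159, 169.8 and 171 CPM at 8 h, a fall of 1.16 ± 0.070 (SE, edgeR adjusted p = 2.32e-17). SPRY2 fell by 1.43 ± 0.12 (SE, edgeR adjusted p = 3.29e-13) and ERRFI1, an inhibitor of the EGF receptor, by 0.60 ± 0.042 (SE, edgeR adjusted p = 2.52e-15). The 250 bases before the start sites of EGR1 and DUSP2 are shown because the genes fell together and each holds a named factor's site. In EGR1 (chr5:138465229-138465478, plus strand) the capitals mark 2 CArG boxes, the site of serum response factor, which begin 105 and 83 bases before the start. In DUSP2 (chr2:96145441-96145690, minus strand) they mark GCGGGGGCG, a form of the EGR site, 103 bases before it.
EGR1: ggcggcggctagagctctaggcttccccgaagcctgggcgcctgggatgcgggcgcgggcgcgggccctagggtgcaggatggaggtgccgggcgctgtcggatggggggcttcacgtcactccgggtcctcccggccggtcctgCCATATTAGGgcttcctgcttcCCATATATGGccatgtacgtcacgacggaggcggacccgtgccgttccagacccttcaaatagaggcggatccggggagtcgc
DUSP2: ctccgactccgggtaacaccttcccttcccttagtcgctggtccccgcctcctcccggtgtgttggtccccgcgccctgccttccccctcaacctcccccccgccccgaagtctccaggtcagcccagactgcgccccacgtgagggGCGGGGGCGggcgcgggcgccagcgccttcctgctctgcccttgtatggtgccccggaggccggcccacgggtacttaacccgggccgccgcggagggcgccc
The CArG box was in 351 of the 27305 windows (1.29%) and GCGGGGGCG in 5.02% of them, against 1.06% and 8.02% of the windows of tested genes, both strands searched. Shares within the immediate early list are not given, since fewer than 80% of its members had a window.

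Cytokine and NF-kB feedback genes turned back after an early rise. Of 25 tested members 24 had been called higher at 4 h, and in the step 16 fell, 15 of them as reversals, while 7 went on rising (8 and 3 on log2(TPM + 1) over 36 libraries). CXCL8, interleukin-8, was 1004, 1037 and 1123 CPM at 4 h and 186, 275 and 322 CPM at 8 h, against 181, 135 and 139 CPM at 0 h. The spread at 8 h was wide but far below 4 h, a fall of 2.00 ± 0.12 (SE, edgeR adjusted p = 6.55e-18). CCL2, a monocyte chemokine, was 298, 277 and 260.3 CPM at 4 h and 44.7, 61.4 and 70.9 CPM at 8 h and fell by 2.21 ± 0.11 (SE, edgeR adjusted p = 1.36e-19), below its untreated mean of 96.9 CPM. LIF, an interleukin-6 family cytokine, was 303, 301 and 301 CPM at 4 h and 121, 126 and 139 CPM at 8 h, a fall of 1.22 ± 0.042 (SE, edgeR adjusted p = 4.41e-25). CCL4 (chr17:36103590-36105621, plus strand) was 10.2, 12.3 and 13.9 CPM at 4 h and 0.822, 1.81 and 1.30 CPM at 8 h, a fall of 3.16 ± 0.21 (SE, edgeR adjusted p = 2.61e-16), and is uncertain because a near-identical gene copy shares its reads. The members that rose included TRAF1, a signalling adaptor, at 211, 201 and 213 CPM at 4 h and 333, 354 and 383 CPM at 8 h, a step of 0.78 ± 0.075 (SE, edgeR adjusted p = 1.8e-11), and TNIP1, an inhibitor of NF-kB, at 0.40 ± 0.040 (SE, edgeR adjusted p = 3.15e-11). BCL2A1, an anti-death BCL2 relative and NF-kB target, rose by 1.62 ± 0.16 (SE, edgeR adjusted p = 4.74e-11). The NF-kB site in its general form was in 9 of the 21 list genes with a window (42.9%), in 13.0% of the windows of tested genes and in 10.8% of all windows, both strands searched. Of 24 interferon response genes 6 fell, beside 18% of all genes, IRF1 by 0.88 ± 0.082 (SE, edgeR adjusted p = 1.05e-11), and 2 rose, 1 of which (IRF7) was not called without WT 4 h replicate 2.

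Of the other reversals after a rise, XIRP1, an actin-binding protein of muscle, was 70.9, 66.6 and 68.2 CPM at 4 h and 8.10, 7.98 and 10.3 CPM at 8 h, a fall of 2.95 ± 0.11 (SE, edgeR adjusted p = 4.86e-24). EFNA1, an ephrin ligand, was 34.1, 42.5 and 44.2 CPM at 4 h and 5.87, 7.62 and 8.57 CPM at 8 h, a fall of 2.42 ± 0.12 (SE, edgeR adjusted p = 5.67e-20). RRAD, a Ras-like GTPase, was 20.6, 23.5 and 19.6 CPM at 4 h and 3.41, 5.26 and 4.33 CPM at 8 h, a fall of 2.26 ± 0.18 (SE, edgeR adjusted p = 8.63e-14). For all 3 genes the wells at 8 h were also below every untreated well. The continued falls with the largest steps outside the lists were EDN2, an endothelin, at 15.0, 20.3 and 19.1 CPM at 4 h and 1.88, 2.00 and 2.68 CPM at 8 h, a fall of 3.02 ± 0.20 (SE, edgeR adjusted p = 4.06e-16), and KCNA1, a potassium channel, at 23.0, 29.8 and 26.4 CPM at 4 h and 2.94, 3.45 and 4.67 CPM at 8 h, a fall of 2.80 ± 0.17 (SE, edgeR adjusted p = 5.23e-17).

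Genes that fell at least 2-fold spanned less of the genome. The 372 protein-coding genes among those with an annotation had a median span of 20.9 kb and a median of 6 exons in the longest transcript, against 32.0 kb and 9 exons over all 12535 annotated protein-coding genes tested. The 100 protein-coding genes among 2-fold risers had a median span of 37.6 kb and 8 exons. These are descriptions, and no test was made.

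KLF and circadian factors, many of them short-lived, also fell. Of 26 members 17 fell (9 on log2(TPM + 1) over 36 libraries) and 2 rose. BHLHE41, a circadian repressor, was 47.2, 53.2 and 54.2 CPM at 4 h and 15.7, 16.5 and 18.7 CPM at 8 h, a fall of 1.59 ± 0.082 (SE, edgeR adjusted p = 1.35e-19). PER1 was 167, 179.7 and 186 CPM at 4 h and 77.3, 90.2 and 98.7 CPM at 8 h, a fall of 0.99 ± 0.064 (SE, edgeR adjusted p = 1.54e-16). The risers were the activator pair ARNTL (0.43 ± 0.082 SE, edgeR adjusted p = 4.52e-05) and CLOCK (0.20 ± 0.040 SE, edgeR adjusted p = 8.55e-05).

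Mitosis genes reversed after a fall. Of 34 mitosis and G2/M genes 20 had been called lower at 4 h, and in the step 21 rose, 13 of them as reversals, and 2 fell (5 and 0 on log2(TPM + 1) over 36 libraries). AURKA, a spindle kinase, was 34.5, 42.7 and 41.0 CPM at 4 h and 76.7, 70.8 and 73.3 CPM at 8 h, after 48.5, 51.5 and 50.5 CPM at 0 h. The wells at 8 h were above both earlier groups, a step of 0.90 ± 0.082 (SE, edgeR adjusted p = 3.85e-12). TTK, a spindle checkpoint kinase, was 16.5, 13.6 and 20.3 CPM at 4 h and 38.2, 35.4 and 33.4 CPM at 8 h, a step of 1.07 ± 0.098 (SE, edgeR adjusted p = 5.73e-12). CENPF, a kinetochore protein, was 199, 209 and 222 CPM at 4 h and 338, 330.3 and 317 CPM at 8 h, a step of 0.64 ± 0.050 (SE, edgeR adjusted p = 4.17e-14). DLGAP5 and KIF20A continued to fall, KIF20A at -0.24 ± 0.081 (SE, edgeR adjusted p = 0.0203), a call that ended without WT 4 h replicate 3, WT 8 h replicate 2 or WT 8 h replicate 3 and whose direction turned on the TPM scale. Outside the list, PIF1, a DNA helicase (chr15:64815632-64825668, minus strand), was 16.4, 18.2 and 17.1 CPM at 4 h and 52.0, 49.2 and 51.7 CPM at 8 h. It had been 23.5, 25.9 and 23.4 CPM at 0 h, so the wells at 4 h were the lowest and those at 8 h the highest of the 3 times, a step of 1.57 ± 0.078 (SE, edgeR adjusted p = 5.5e-20). PSRC1 and FAM83D, both spindle proteins, rose by 1.27 ± 0.083 (SE, edgeR adjusted p = 2.24e-16) and by 1.15 ± 0.058 (SE, edgeR adjusted p = 7.16e-20). The 250 bases before the PIF1 start (chr15:64825648-64825897, minus strand) are shown because they hold TTTGAA, the cell cycle homology region of many G2/M promoters, in capitals 20 bases before the start. That RefSeq start lies inside the GENCODE span given above, and so does the match.
PIF1: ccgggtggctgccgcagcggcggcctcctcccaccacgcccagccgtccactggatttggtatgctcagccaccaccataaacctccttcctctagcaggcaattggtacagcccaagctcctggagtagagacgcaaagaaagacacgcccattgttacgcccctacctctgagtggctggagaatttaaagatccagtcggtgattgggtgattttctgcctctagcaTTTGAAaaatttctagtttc
TTTGAA was in 15.4% of all windows and 10.3% of those of tested genes, on either strand. Of 42 DNA replication and S phase genes 17 rose and none fell, CDC6 by 0.41 ± 0.055 (SE, edgeR adjusted p = 5.12e-08). That count was 9 without WT 4 h replicate 1, 10 without WT 8 h replicate 3 and 4 on log2(TPM + 1) over 36 libraries. Of 14 cyclin D and CDK inhibitor genes 4 rose and 5 fell, among them CDKN2B, which encodes the inhibitor p15, at 34.1, 31.8 and 29.5 CPM at 4 h and 15.0, 16.3 and 14.7 CPM at 8 h, a fall of 1.05 ± 0.087 (SE, edgeR adjusted p = 2.97e-13).

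The p53 targets divided. Of 20 members 14 had been lower at 4 h, and in the step 8 rose, 6 of them as reversals, and 8 fell. MDM2, the ubiquitin ligase of p53, was 103, 99.8 and 99.7 CPM at 4 h and 177, 171 and 159.7 CPM at 8 h, a step of 0.74 ± 0.049 (SE, edgeR adjusted p = 3.13e-16) back towards 188 CPM at 0 h. TNFRSF10B, the death receptor DR5, was 239, 228 and 235 CPM at 4 h and 275, 297 and 300.4 CPM at 8 h, a step of 0.32 ± 0.036 (SE, edgeR adjusted p = 1.19e-09). BTG2, an anti-proliferative gene, was 80.7, 93.5 and 88.7 CPM at 4 h and 38.2, 40.0 and 38.8 CPM at 8 h and fell by 1.16 ± 0.081 (SE, edgeR adjusted p = 1.69e-15). Of 16 BCL2 family genes 5 rose and 7 fell, the falls numbering 4 without WT 4 h replicate 2 or WT 8 h replicate 2. BBC3, which encodes PUMA, rose by 0.45 ± 0.092 (SE, edgeR adjusted p = 0.000116) and PMAIP1, which encodes NOXA, fell by 0.17 ± 0.042 (SE, edgeR adjusted p = 0.00113). Other reversals after a fall were ITGA2, a collagen receptor subunit, at 70.1, 54.4 and 75.3 CPM at 4 h and 186, 168 and 184 CPM at 8 h, a step of 1.42 ± 0.12 (SE, edgeR adjusted p = 2.42e-13), and NAV2 at 1.15 ± 0.055 (SE, edgeR adjusted p = 8.89e-21).

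Genes of cholesterol supply fell. Of 25 members 20 fell and none rose, with a median step of -0.44, although 1 rise was called without WT 4 h replicate 2 or WT 8 h replicate 3, and 13 falls on log2(TPM + 1) over 36 libraries. HMGCS1, of the mevalonate pathway, was 381, 412 and 430.2 CPM at 4 h and 155, 169.7 and 181 CPM at 8 h, against 414, 379.9 and 382 CPM at 0 h. It was newly lowered, with a fall of 1.27 ± 0.049 (SE, edgeR adjusted p = 1.38e-23). INSIG1, which retains the sterol sensor in the ER, was 18.3, 23.9 and 21.3 CPM at 4 h and 5.64, 5.99 and 7.10 CPM at 8 h, a fall of 1.74 ± 0.14 (SE, edgeR adjusted p = 5.28e-14). STARD4, a sterol carrier, was 81.7, 88.8 and 88.9 CPM at 4 h and 36.4, 34.4 and 32.1 CPM at 8 h, a fall of 1.34 ± 0.063 (SE, edgeR adjusted p = 5.32e-21). Of 22 fatty acid and triglyceride genes 7 rose and 8 fell. SCD, a desaturase, fell by 0.49 ± 0.033 (SE, edgeR adjusted p = 9.62e-16), and DGAT2, of triglyceride synthesis, rose by 0.70 ± 0.094 (SE, edgeR adjusted p = 6.77e-08). Of 30 lysosome genes 21 fell and none rose, each by less than 2-fold, a count of 10 in the 33-library TPM fit. NPC2, a lysosomal sterol carrier, was 167, 165 and 168 CPM at 4 h and 136, 138 and 133 CPM at 8 h, a fall of 0.30 ± 0.034 (SE, edgeR adjusted p = 1.85e-09).

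Chaperone genes of the cytosol mostly fell, and those of the ER moved both ways. Among the 21 heat shock genes of the cytosol, falls numbered 11 and rises 3. HSPB8, a small heat shock protein, was 174, 184 and 178 CPM at 4 h and 83.5, 90.5 and 91.1 CPM at 8 h, a fall of 1.01 ± 0.046 (SE, edgeR adjusted p = 3.51e-21). DNAJB1 was 173, 184 and 180.5 CPM at 4 h and 126, 123 and 135 CPM at 8 h, a fall of 0.48 ± 0.038 (SE, edgeR adjusted p = 8.41e-14). Of 29 ER chaperone and ER-associated degradation genes 7 rose and 10 fell, the falls numbering 5 in the 33-library TPM fit. ATF6, an ER stress sensor, was 80.6, 84.8 and 82.0 CPM at 4 h and 122, 115 and 113 CPM at 8 h, a step of 0.50 ± 0.044 (SE, edgeR adjusted p = 1.1e-12). MANF, an ER-resident secreted factor, was 69.4, 69.5 and 67.3 CPM at 4 h and 48.1, 49.9 and 55.3 CPM at 8 h, a fall of 0.42 ± 0.058 (SE, edgeR adjusted p = 1.12e-07). The wells of these 2 genes separated in opposite directions.

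The matrix, adhesion and growth factor lists held more falls than rises. Of 33 collagens and matrix genes 15 fell and 8 rose. Thrombospondin-1 (THBS1) was 1348, 1436 and 1525 CPM at 4 h and 281, 321 and 345 CPM at 8 h, a fall of 2.18 ± 0.046 (SE, edgeR adjusted p = 2.13e-32). Tenascin-C (TNC) went the other way, at 201, 205 and 208 CPM at 4 h and 383, 385 and 395 CPM at 8 h, a step of 0.92 ± 0.034 (SE, edgeR adjusted p = 3.11e-24). Of 24 matrix proteases and inhibitors 13 fell and 6 rose. TIMP2, a metalloprotease inhibitor, fell by 0.67 ± 0.033 (SE, edgeR adjusted p = 1.84e-20), and MMP9, a gelatinase, was 21.5, 17.0 and 17.5 CPM at 4 h and 64.5, 54.1 and 62.8 CPM at 8 h, a step of 1.69 ± 0.13 (SE, edgeR adjusted p = 5.81e-14). The 24 targets of YAP and TEAD showed 16 falls and 3 rises, with F3, tissue factor, at 33.3, 35.0 and 31.5 CPM at 4 h and 7.87, 7.62 and 7.01 CPM at 8 h, a fall of 2.15 ± 0.10 (SE, edgeR adjusted p = 4.35e-21). CTGF was 1042, 1201 and 1299 CPM at 4 h and 650.5, 641 and 660.3 CPM at 8 h, a fall of 0.86 ± 0.055 (SE, edgeR adjusted p = 1.25e-16). Of 26 TGF-beta, BMP and ID genes 14 fell, 7 of them after an earlier rise, and 2 rose. TGFB2 was 299, 318 and 319 CPM at 4 h and 125, 148 and 142 CPM at 8 h, a fall of 1.17 ± 0.047 (SE, edgeR adjusted p = 4.17e-23). INHBA, an activin subunit, was 333, 395 and 384 CPM at 4 h and 159.6, 183 and 185 CPM at 8 h, a fall of 1.07 ± 0.056 (SE, edgeR adjusted p = 2.19e-19). Of 20 integrins and cadherins 7 fell and 5 rose, ITGB8 falling by 1.57 ± 0.093 (SE, edgeR adjusted p = 1.05e-17) and CDH4 rising by 0.98 ± 0.068 (SE, edgeR adjusted p = 1.46e-15). The mesenchymal marker sum moved down in the same libraries, and its part in these results was not tested.

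The remaining lists moved less or both ways, and their counts stand beside 18% of all genes in each direction. Of 25 NRF2 and glutathione genes 10 rose, TXNRD1 by 0.45 ± 0.037 (SE, edgeR adjusted p = 1.66e-13), and 6 fell, among them BACH1, the repressor of NRF2 targets, at 334, 356 and 345 CPM at 4 h and 213, 229 and 229.8 CPM at 8 h, a fall of 0.62 ± 0.039 (SE, edgeR adjusted p = 1.19e-16). Of 33 autophagy genes 12 rose, MAP1LC3B by 0.54 ± 0.038 (SE, edgeR adjusted p = 1.33e-15), and 5 fell, the rises numbering 7 with no filter on low counts or in the 33-library TPM fit. Of 35 proteasome subunits 8 rose (5 without WT 4 h replicate 3 or with no filter) and 3 fell (1 without WT 8 h replicate 2). Of 24 glycolysis genes 11 fell, PFKFB3 by 0.73 ± 0.044 (SE, edgeR adjusted p = 2.65e-17), and 6 rose. Of 39 nuclear-encoded respiratory chain subunits 3 rose and 8 fell, a share of falls near that of all genes. The falls numbered 5 without WT 4 h replicate 1 and 4 without WT 8 h replicate 2, and the rises numbered 1 without WT 4 h replicate 3. Of 13 transcripts of the mitochondrial genome 12 fell by at most 0.21 on the log2 scale, beside the lower mitochondrial share of counts at 8 h. Of 28 SR proteins and hnRNPs 11 rose, the kinase gene CLK1 by 0.69 ± 0.072 (SE, edgeR adjusted p = 1.72e-10), and 6 fell. Of 18 zinc transporters and metallothioneins 3 rose and 6 fell, with the zinc exporter SLC30A1 at 264, 294 and 302 CPM at 4 h and 143, 162 and 155 CPM at 8 h, a fall of 0.90 ± 0.059 (SE, edgeR adjusted p = 3.36e-16). Of 17 tribbles, TXNIP and mTORC1 brake genes 5 rose and 7 fell. Within that list TRIB3 rose as above, whereas TRIB2 was 38.4, 43.2 and 40.4 CPM at 4 h and 13.2, 11.9 and 13.2 CPM at 8 h, a fall of 1.68 ± 0.080 (SE, edgeR adjusted p = 1.31e-20). TXNIP, which binds thioredoxin, was 21.6, 21.1 and 24.4 CPM at 4 h and 46.0, 57.0 and 61.4 CPM at 8 h, a step of 1.30 ± 0.12 (SE, edgeR adjusted p = 2.14e-12).

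**Figure D4:**
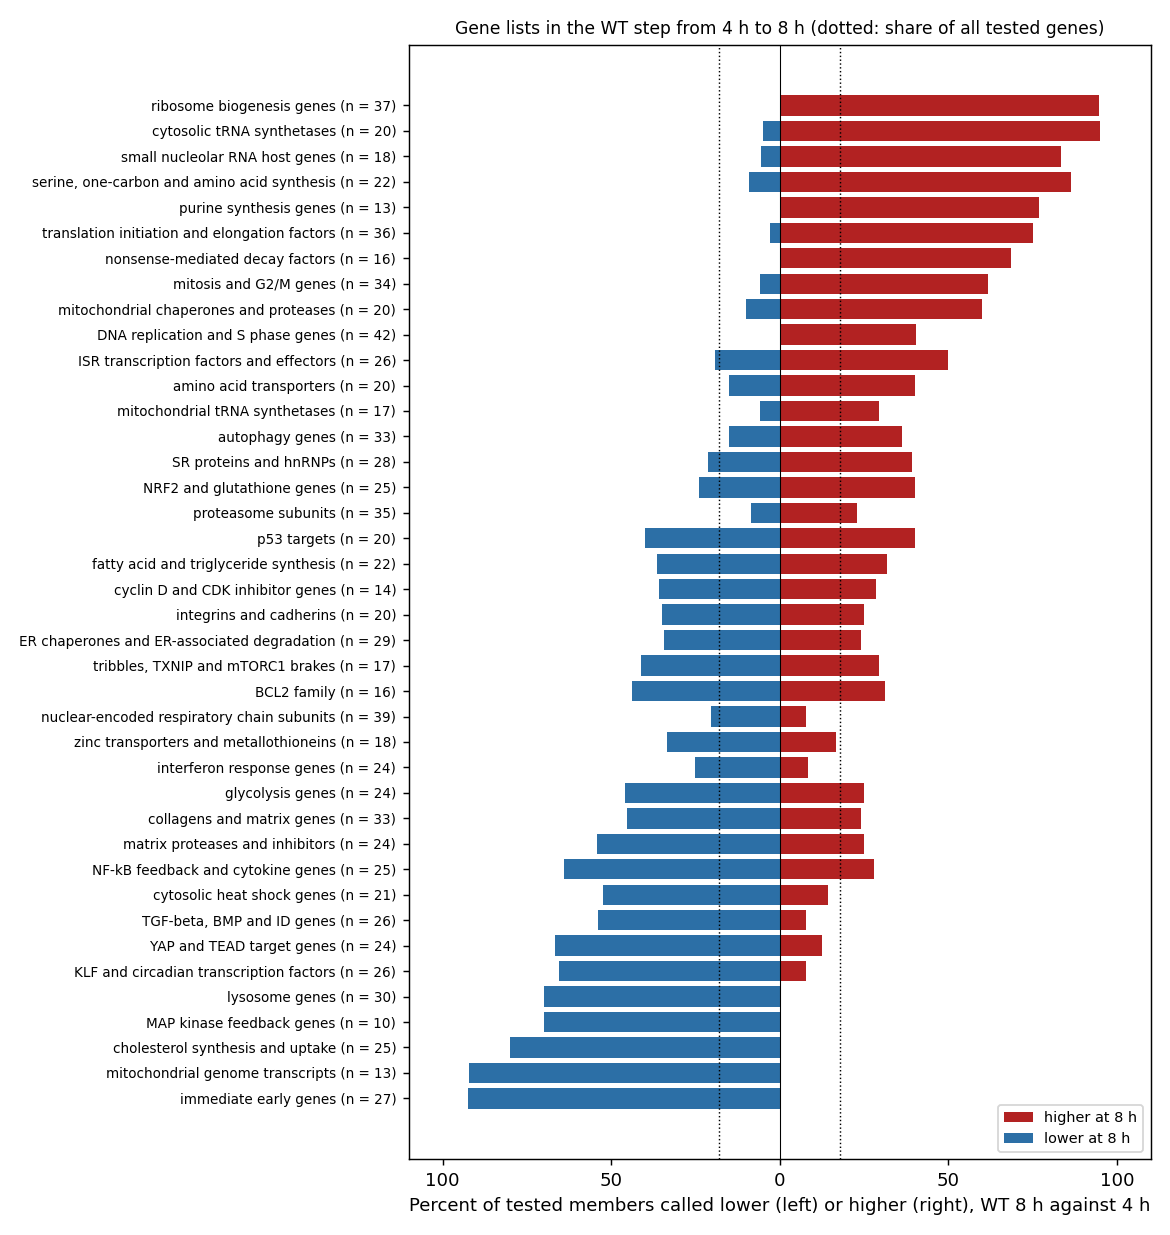
Percent of tested members of 40 gene lists called higher (red, right) or lower (blue, left) at 8 h than at 4 h in WT cells, with the shares of all tested genes as dotted lines at 18%. Lists for ribosome biogenesis and tRNA charging have the largest shares of rises, and immediate early genes and mitochondrial genome transcripts the largest shares of falls.

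The step was also compared with the same interval in ATF4KO cells, which asks where it differs without ATF4. The difference, knockout step minus WT step, was called for 2250 genes (11.8%), 1538 higher in the knockout (8.08%) and 712 lower (3.74%). The split depended on the scale, with 68.4% of calls higher from counts, 18.5% from log2(TPM + 1) over 36 libraries and 38.6% over 33. Differences of at least 2-fold numbered 30 higher (0.158%) and 126 lower (0.662%). Without WT 4 h replicate 1 the higher calls numbered 982.

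Several of the genes that rose most in WT cells were not called higher in the knockout step. ANK2 in the knockout was 2.40, 1.93 and 1.67 CPM at 4 h and 1.16, 0.764 and 0.934 CPM at 8 h. Where the WT wells rose, those wells fell, a difference of -3.72 ± 0.35 (SE, edgeR adjusted p = 1.94e-10). OLAH was 2.23, 2.54 and 2.78 CPM and then 1.40, 1.78 and 2.01 CPM in the knockout, a difference of -2.89 ± 0.29 (SE, edgeR adjusted p = 1.21e-09). The difference was -3.01 ± 0.41 (SE, edgeR adjusted p = 7.81e-07) for TSLP and -2.04 ± 0.42 (SE, edgeR adjusted p = 0.000733) for SPX, a peptide hormone gene with a WT step of 1.43 ± 0.063 (SE, edgeR adjusted p = 9.85e-22). ASNS was 16.8, 18.3 and 17.8 CPM and then 14.3, 15.4 and 16.9 CPM in the knockout, with a difference of -0.95 ± 0.10 (SE, edgeR adjusted p = 3.69e-09). The knockout wells of ASNS lay below every WT well at the same time. GDF15 and VLDLR fell in the knockout and rose in WT cells, with differences of -1.15 ± 0.16 (SE, edgeR adjusted p = 1.25e-06) and -0.81 ± 0.13 (SE, edgeR adjusted p = 1.07e-05). TRIB3 rose in both, less in the knockout, with a difference of -0.47 ± 0.083 (SE, edgeR adjusted p = 7.27e-05). HSPA5 fell in the knockout, a step of -0.43 ± 0.031 (SE, edgeR adjusted p = 2.89e-15) and a difference of -0.51 ± 0.042 (SE, edgeR adjusted p = 1.3e-11). DDIT4 fell more in the knockout, with a difference of -0.58 ± 0.13 (SE, edgeR adjusted p = 0.00182).

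In the other direction, SESN2 and ATF4 mRNA rose more in the knockout, with differences of 0.49 ± 0.12 (SE, edgeR adjusted p = 0.00557) and 0.49 ± 0.044 (SE, edgeR adjusted p = 5.95e-11). The SESN2 difference was not called in the 33-library TPM fit. EGR1 was 282, 335 and 341 CPM at 4 h and 373, 361 and 351 CPM at 8 h in the knockout, a step of 0.19 ± 0.081 (SE, edgeR adjusted p = 0.0613) and a difference of 1.49 ± 0.12 (SE, edgeR adjusted p = 3.87e-12). DUSP2 fell in both, from 206, 262 and 263 CPM to 80.1, 91.1 and 99.8 CPM in the knockout, with a difference of 1.42 ± 0.15 (SE, edgeR adjusted p = 6.81e-09). EGR2 also fell less, with a difference of 1.53 ± 0.34 (SE, edgeR adjusted p = 0.00167), a call lost in the 33-library TPM fit. The EGR1, DUSP2 and GDF15 differences were not called on log2(TPM + 1) over 36 libraries and were called over 33. Of the 27 immediate early genes 17 were called higher in this difference and none lower, beside 8.08% higher and 3.74% lower of all genes. On log2(TPM + 1) none were called over 36 libraries and 11 higher over 33. The median step of these 27 genes was -0.85 in the knockout and -1.11 in WT cells. Of 37 ribosome biogenesis genes 27 were called higher and none lower, against 2 and 0 on log2(TPM + 1) over 36 libraries and 6 and 0 over 33. The median step of these 37 was 0.58 in the knockout and 0.33 in WT cells. In some other lists lower calls led, at 10 lower and 3 higher of 26 ISR genes. They were 9 and 2 of 22 amino acid synthesis genes and 8 and 3 of 20 cytosolic tRNA synthetases. Other lists had higher calls and none lower, such as 13 of 21 cytosolic heat shock genes and 13 of 24 glycolysis genes. The differences of these other lists were not counted on the TPM scale. The DDIT3, PPP1R15A, EIF2AK3, ATF3 and SLC7A11 differences were not called, at 0.26, 0.090, 0.050, -0.36 and -0.52. ATF3 was called without WT 4 h replicate 3, WT 8 h replicate 1 or ATF4KO 4 h replicate 1, and DDIT3 without ATF4KO 8 h replicate 1. The SLC7A11 difference was called in the 33-library TPM fit at -0.92.

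**Figure D5:**
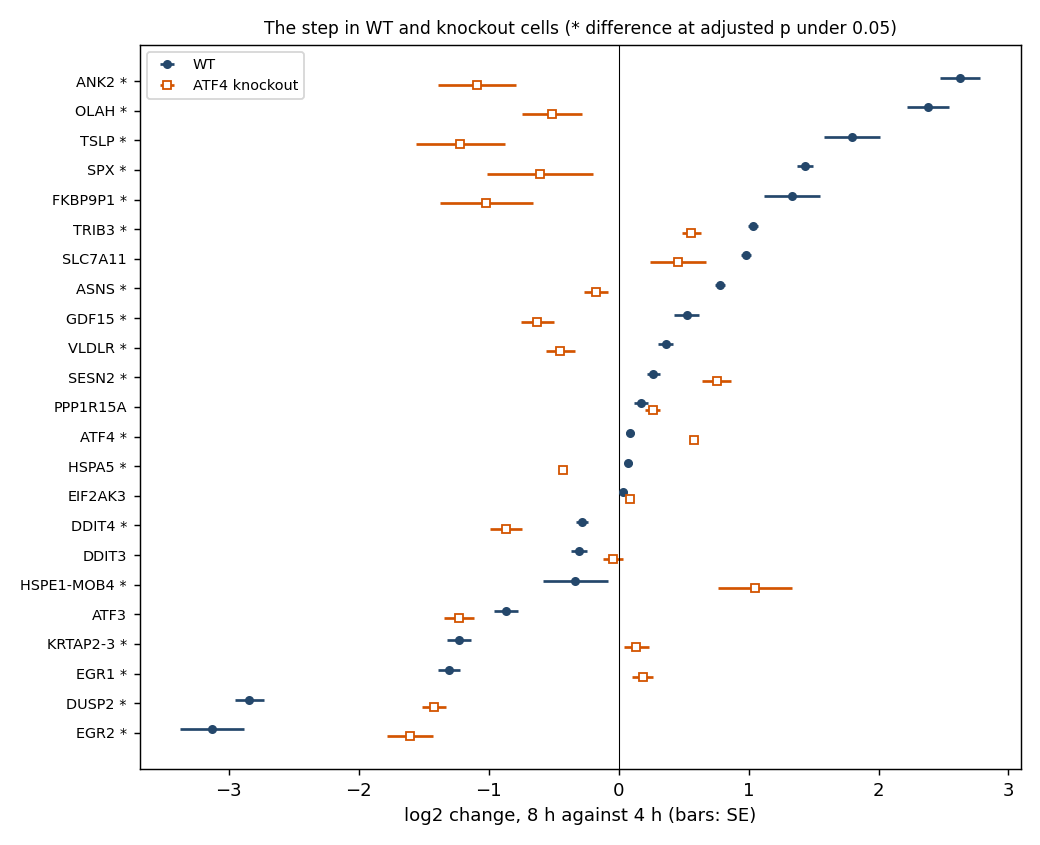
Log2 change from 4 h to 8 h (horizontal axis, bars are standard errors) in WT (filled circles) and ATF4KO cells (open squares) for 23 genes, with an asterisk where the difference passed at an adjusted p under 0.05. ANK2, OLAH, TSLP and SPX lie right of 0 in WT cells and left of 0 in the knockout, while EGR1 lies left of 0 in WT cells and right of it in the knockout.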

How the data were processed

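Total RNA from wells of 24-well plates was sequenced as directional libraries, per the labels' protocols. The authors deposited expected counts per gene, which they made with Salmon 0.9.1 against GRCh38 after FastQC 0.11.5, per the submitters' processing notes, and a second table of TPM. The sources used here name no annotation release, strand setting or gene summarisation. The members, the 40 gene lists, the 5 marker lists and the rule for named genes were chosen with earlier results of these data known.

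Counts carried decimals (72.0 to 78.9% of cells per library were whole, tolerance 1e-06) and were rounded. Symbols came from the TPM table, and positions from GENCODE 29, which matched 53330 of 57665 identifiers. filterByExpr by group left 19043 of the 44932 genes that had any count. After TMM scaling, a mean for each of 12 groups was fitted to all 36 libraries, and contrasts were tested in edgeR 4.0.16 (R 4.3.3; quasi-likelihood F-test), with Benjamini-Hochberg adjustment over all genes tested. SE is the absolute log2 change divided by the square root of F. Genes named are the 10 largest rises and falls and the 5 largest steps of each class, among called genes with no overlap and a mean of at least 5 CPM at 4 h or 8 h, 15 stress genes whatever their values, and up to 4 members per list by smallest adjusted p, plus up to 2 that moved against it. A few list members (BCL2A1, BTG2 and others) fall under these last parts. Differences from the knockout are given for the 6 largest each way and the stress genes. Left out were genes with 3 or fewer summed counts in the knockout at 4 h or 8 h. CHAC1 was also left out, by name and not by that bound. HMOX1 and GDF15 were placed together after their values were seen.

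Other settings tried were DESeq2 1.42.0, RLE scaling, smaller sets of libraries, no filter, a 2-fold minimum, a block for replicate number, the earlier change read at 2 h, limma 3.58.1 on log2(TPM + 1) and log2(TPM + 0.1), and single libraries left out in turn. Those left out were the WT libraries at 0 h, 4 h and 8 h and the ATF4KO libraries at 4 h and 8 h. No other library was left out singly. A TPM fit without the 3 untreated knockout libraries was added after the data were seen, because their TPM did not match their counts. On simulated counts with 100 genes changed at each size, the step test recovered 60% of changes of 0.5 and 83% of changes of 1 on the log2 scale and called 8 of 17883 unchanged genes. No 2 replicates of the same group were duplicates, with a chi-square per degree of freedom of 1.34 to 2.63 between them. Libraries of different groups were not compared in this way. Promoter windows were from RefSeq (GRCh38.p14), with 12600 of the tested genes matched.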

Additional observations from a re-analysis of the deposited data

Results flagged for a closer look

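The results below were picked out because the step in the knockout differed from the WT step by a test of the difference itself (edgeR adjusted p under 0.05), and values are the knockout step minus the WT step on the log2 scale with SE. Of the genes that rose in WT cells, the difference was -3.72 ± 0.35 for ANK2, -3.01 ± 0.41 for TSLP, -2.89 ± 0.29 for OLAH and -2.04 ± 0.42 for SPX. It was -1.15 ± 0.16 for GDF15, -0.95 ± 0.10 for ASNS, -0.81 ± 0.13 for VLDLR, -0.51 ± 0.042 for HSPA5 and -0.47 ± 0.083 for TRIB3. FKBP9P1, a pseudogene whose reads may be divided with its parent gene, was 2.96, 2.21 and 2.57 CPM and then 4.81, 8.71 and 5.89 CPM in WT wells, with a difference of -2.35 ± 0.42. DDIT4, which fell in both genotypes, differed by -0.58 ± 0.13.

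Differences above 0 were those of SESN2 (0.49 ± 0.12), ATF4 (0.49 ± 0.044), DUSP2 (1.42 ± 0.15), EGR1 (1.49 ± 0.12) and EGR2 (1.53 ± 0.34). KRTAP2-3, a keratin-associated gene with near-identical copies, was 74.2, 90.7 and 86.4 CPM at 4 h and 28.5, 35.0 and 42.0 CPM at 8 h in WT wells, and its difference was 1.36 ± 0.13. That difference was not called on log2(TPM + 1) over 36 libraries and was called over 33. The read-through gene HSPE1-MOB4, which overlaps HSPE1 and MOB4, differed by 1.38 ± 0.38, a call that ended without WT 4 h replicate 3 and in the 33-library TPM fit. CTC-435M10.3 was 9.89, 10.4 and 3.06 CPM and then 0.117, 0.726 and 5.19 CPM in WT wells, and 1.40, 0 and 3.56 CPM and then 5.94, 3.31 and 12.2 CPM in the knockout, with no separation between wells. Its difference of 4.00 ± 1.17 was not called with DESeq2, in the 33-library TPM fit, or without any 1 of WT 4 h replicate 1, WT 8 h replicate 1 or 2, ATF4KO 4 h replicate 2 and ATF4KO 8 h replicate 3. Whether depth, mapping or the wells bear on these differences was not tested.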

How the results depend on the processing

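A minimum of 2-fold left 185 genes higher and 553 lower in the step, and limma gave 2116 and 1883 on log2(TPM + 1) and 2073 and 1870 on log2(TPM + 0.1). The difference of the steps gave 64 genes higher and 282 lower in the knockout on log2(TPM + 1), and 295 and 469 over 33 libraries. The cause of these changes was not tested. With the earlier change read at 2 h there were 1976 newly raised, 1874 newly lowered, 818 continued up, 733 continued down, 1041 held up and 975 held down genes. Leaving out each WT library at 4 h or 8 h gave 2963 to 3074 genes higher and 3062 to 3195 lower in the step. For the classes, each WT library at 0 h, 4 h or 8 h was left out. That gave 792 to 1095 newly raised, 962 to 1220 newly lowered, 1594 to 1791 continued up and 1277 to 1559 continued down genes, with 533 to 630 reversed after a rise and 293 to 353 after a fall. It gave 1728 to 2320 held up and 1715 to 2264 held down genes. For the difference, leaving out each WT or ATF4KO library at 4 h or 8 h gave 982 to 1428 higher (982 without WT 4 h replicate 1) and 544 to 735 lower. The step counts under RLE scaling, DESeq2, no filter and smaller sets of libraries stayed within 1.5 times of those reported. Values of the opposite sign were the EIF2AK3 difference at -0.016 on log2(TPM + 1), over 36 or 33 libraries, the KIF20A step at 0.015 on log2(TPM + 0.1) and 0.014 on log2(TPM + 1), and the OMA1 step at 0.15 on both TPM scales. Of 269 steps and 24 differences of named genes, the others kept their direction in every setting run.

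Other list counts that moved by over 1.5 times on log2(TPM + 1) over 33 libraries were the falls in glycolysis (7), cyclin D and CDK inhibitor genes (3), amino acid transporters (1) and respiratory chain subunits (4), and the rises in integrins and cadherins (3) and mitochondrial tRNA synthetases (1). The falls in mitosis genes (1), proteasome subunits (1) and mitochondrial chaperones and proteases (1) and the rises in interferon response genes (1) moved too. Over 36 libraries falls numbered 9 in the TGF-beta list, 9 in the lysosome list, 6 of the mitochondrial genome transcripts, 2 in each of the ISR and p53 lists and 1 in the BCL2 family.

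The replicate number was checked as a block. Wells with the same number correlated at 0.091, 0.031 and 0.040 between WT 4 h and 8 h, each highest with its own number. These small values do not settle whether the numbers carry a weak pairing. The main fit held no pairing because the labels do not say that the numbers pair wells. With the replicate block 3429 genes were higher and 3434 lower in the step, and the difference gave 1583 and 729. The block changed 1 call among the named genes, the ATF3 difference, to an adjusted p of 0.020 in edgeR. The ATF3 and DDIT3 differences were also called with no filter. With 3 wells a group and 8608541 counts in the smallest library, the error of a step was 0.26 on the log2 scale for FGF21 (mean of 3.17 CPM at 8 h) and 0.040 for ASNS (317 CPM).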
